A study of Mus musculus with 2 samples.

Results

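The Mir379-Mir410 cluster is a run of microRNA genes on chromosome 12 of the mouse, inside the imprinted Dlk1-Dio3 region. Its members here were all counted genes whose GENCODE coordinates lie between positions 109700000 and 109750000 of assembly mm10. This rule used position only and gave 38 of the 1973 counted genes, 34 on the plus strand and 4 on the minus strand. They extended over 38901 bp, from Mir379 at 109709060 to the end of Mir3072 at 109747960, with a median gap of 590.0 bp between neighbours and a range of 20 to 4368 bp. Of the 38 genes, 24 lay before the start of the noncoding transcript Mirg (109729764 to 109749460) and 14 lay inside it: 5 in an intron, 4 within an exon and 5 across an exon edge.

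RNA shorter than 30 nucleotides was sequenced from livers of B6NCrl embryos at day 11.5 of development, with male and female embryos pooled. Replicate 1 was a pool of 109 embryos, and the labels do not state the pool size for replicate 2. The labels name them biological replicates of 1 group and give no treatment, mutation or control, so no comparison of conditions existed. Means are therefore given with the SD over both libraries, and every difference between them is one of libraries.

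MicroRNAs are cut from hairpin precursors, each of which can yield a mature arm from its 5′ side (5p) and its 3′ side (3p). Bases 2 to 8 of a mature arm form the seed, which sets most of the pairing with target mRNAs. Genes of this cluster are transcribed together as long precursors from the maternal chromosome, while the paternal copy is silent. The cluster is known mainly from brain, placenta and embryonic tissues, where neuronal activity and the factor Mef2 can induce it. Mice that lack it have trouble keeping up blood glucose around birth, with altered liver metabolism.

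Mature sequences from RefSeq (assembly GRCm38.p6) matched 34 of the 38 members by name. Gm24321, Gm25252, Gm25750 and Gm27379 did not match. With the 4 plus-strand microRNAs that lie across from the minus-strand members, and with Mir299b left aside, 37 loci had 69 annotated arms. These carried 64 distinct seeds, so the cluster is closer to a collection of different seeds than to repeats of a single one. The counts hold for the listed arms only, and a single arm was listed for Mir376c, Mir487b, Mir539, Mir485 and Mir453. The seed of miR-376c-5p is also that of miR-376b-5p, which was not among these loci. The 5 seeds found at more than 1 locus included those of the following arms, shown with the seed in capitals because their loci have the highest summed counts among the 5. miR-379 and miR-411 share their 3p seed, miR-379 and miR-1193 share their 5p seed, and miR-494 and miR-410 share their 5p seed.
miR-379-3p: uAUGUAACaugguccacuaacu
miR-411-3p: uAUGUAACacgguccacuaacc
miR-379-5p: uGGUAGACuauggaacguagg
miR-1193-5p: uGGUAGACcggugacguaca
miR-494-5p: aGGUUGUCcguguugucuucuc
miR-410-5p: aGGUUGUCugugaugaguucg

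The 3p arms of miR-379 and miR-411 were identical at 20 of 22 positions, the highest match among pairs of arms with Mir299b left aside. Other look-alike arms differed inside the seed. The 3p arms of miR-300 and miR-381 matched at 19 of 22 positions and those of miR-543 and miR-495 at 18 of 22, yet neither pair shared a seed. These 4 arms are printed to show where the seeds part.
miR-300-3p: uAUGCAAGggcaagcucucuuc
miR-381-3p: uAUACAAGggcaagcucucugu
miR-543-3p: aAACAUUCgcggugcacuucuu
miR-495-3p: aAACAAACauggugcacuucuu

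Whole hairpins were less alike: over 595 pairs among 35 hairpins the median identity was 50.6%, and the closest pairs, Mir411 with Mir758 and Mir300 with Mir381, reached 73.8%. Short stretches did recur among mature arms. The letters GUUGCC occurred in 7 of the 69 arms (10.1%), against 0.240% of the 1667 other mouse arms in the table. GGUUGA occurred in 6 arms (8.70%, against 0.0600% elsewhere) and ACACGG in 5 arms (7.25%, against 0.120%). Motifs were read on the strand of the mature RNA only, these 3 were chosen after the 6-base counts were seen, and GUUGCC and GGUUGA overlap in the letters GUUG. A match is a description of these letters and not of any binding. The arms with GUUGCC were the 5p arms of miR-543, miR-495, miR-381, miR-154, miR-496a and miR-377, and miR-453.

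The cluster held 359142 of the 3344673 assigned counts of replicate 1 and 203260 of the 1584499 of replicate 2. As a share this was 10.74% (95% exact Clopper-Pearson interval 10.70 to 10.77) and 12.83% (12.78 to 12.88), a mean of 11.8 ± 1.48% (SD, n = 2). Intervals cover counting error only, and the gap between the libraries was far wider than either. By the minimum of 10 counts in both libraries, 31 of the 38 members were detected. Of 110 genes with a mean of at least 1000 counts per 1000000 assigned counts (CPM), 15 were members, and all 15 passed that level in both libraries. Cluster genes took 14 of the 100 highest ranks in replicate 1 and 15 in replicate 2. A single member reached the highest 10, Mir411 in replicate 2, at rank 8. In whole livers, more cells of an expressing type and more RNA per cell cannot be told apart.

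**Figure D1:**
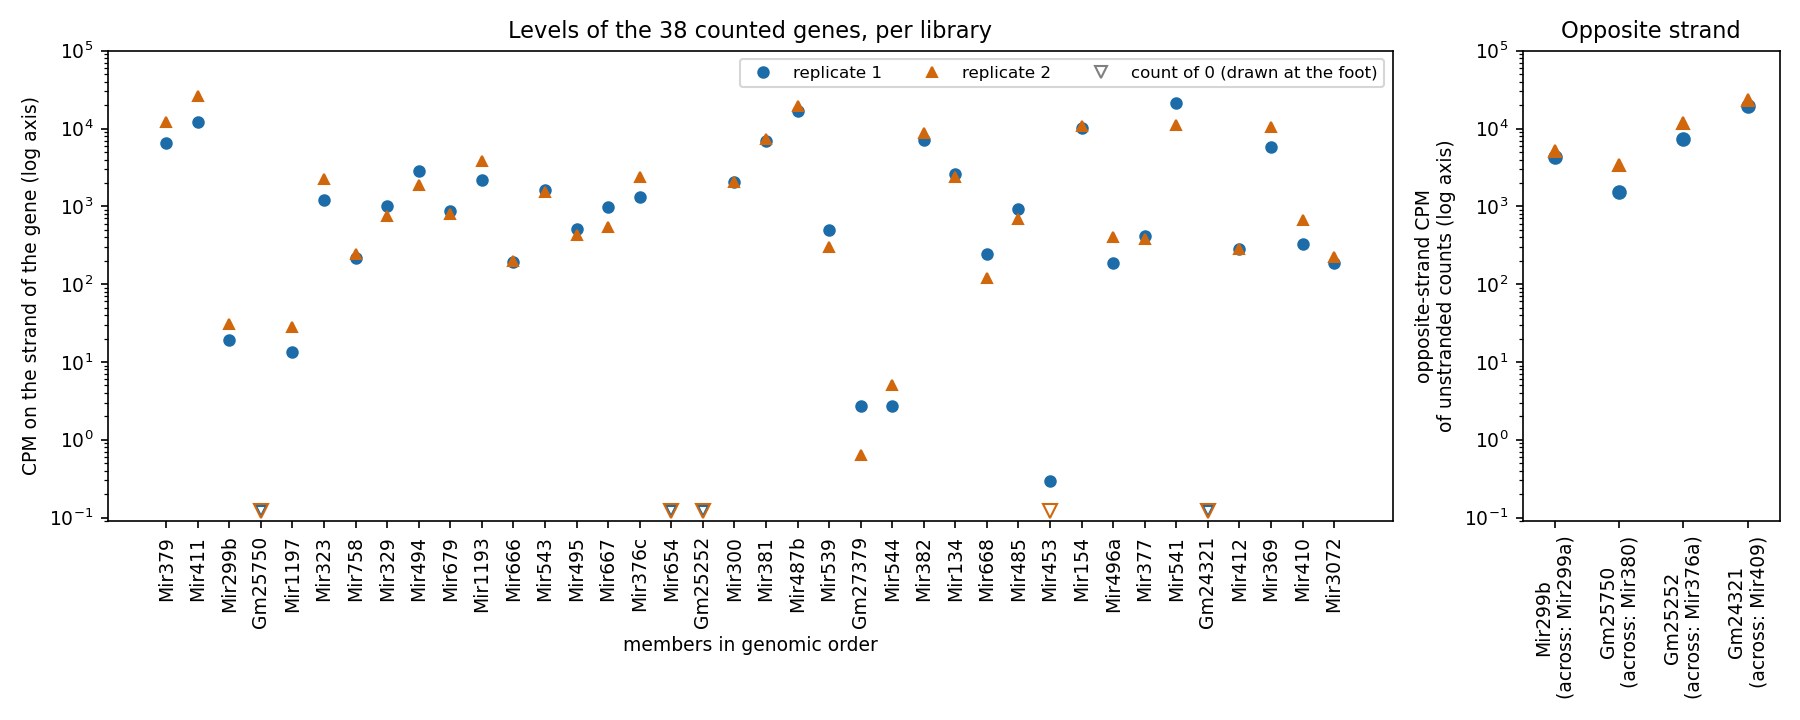
Left, CPM on the strand of the gene (log axis) for the 38 members in genomic order, circles for replicate 1 and triangles for replicate 2, with counts of 0 drawn at the foot; right, reads opposite to the 4 minus-strand members, as CPM of all unstranded counts. High and low members alternate along the cluster, and the minus-strand members empty or nearly so on their own strand have 1530 to 23599 CPM across from it.

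Counts are of reads per gene and do not separate the arms of a hairpin. Because a read covers a mature arm whatever the length of the hairpin, CPM was not divided by gene length. Mir411 had 12012 CPM in replicate 1 and 25847 in replicate 2 (18929 ± 9783, SD, n = 2). Mir487b had 17047 and 19289 CPM (18168 ± 1586), and Mir541 had 21440 and 11020 CPM (16230 ± 7368). The ranges of these 3 genes overlapped, so their order was not resolved: Mir541 stood highest in replicate 1, at rank 13 of all genes, and Mir411 in replicate 2. Mir487b held rank 14 in both. Mir154 followed with 10023 and 10936 CPM (10480 ± 645), rank 25 in both libraries. In replicate 2 it lay within 100 CPM of Mir541.

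Mature arms of Mir487b, Mir541 and Mir154 are printed since these genes, with Mir411 and Mir379, make up the 5 with the highest mean CPM. The 5p arm of miR-541 is among the longest of the cluster, at 25 bases.
miR-487b-5p: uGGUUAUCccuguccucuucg
miR-541-5p: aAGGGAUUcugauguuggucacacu
miR-541-3p: uGGCGAACacagaauccauacu
miR-154-5p: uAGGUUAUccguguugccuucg
miR-154-3p: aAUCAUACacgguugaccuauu

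Those 5 genes together held 62.1 ± 0.391% of the cluster's counts (SD, n = 2), so most of its output came from few hairpins. Mir379, the gene at the 5′ end and the last of the 5, had 6447 CPM in replicate 1 and 12204 in replicate 2 (9326 ± 4071). The means of the next 3 genes were close to each other. Mir369, whose 3p arm has been studied for its part in translation of Tnf mRNA, had 5718 and 10388 CPM (8053 ± 3302). Mir382 had 7143 and 8889 CPM (8016 ± 1235). Mir381 had 6859 and 7349 CPM (7104 ± 347). Ranges of these 4 genes overlapped in part: Mir379 was the lowest but 1 of them in replicate 1 and the highest in replicate 2, so the order within this set was not resolved.

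Lower, but with means of at least 1000 CPM, were Mir1193, Mir134, Mir494, Mir300, Mir376c, Mir323 and Mir543. Mir134, whose microRNA limits the size of dendritic spines in neurons through Limk1, had 2583 and 2392 CPM (2487 ± 135, SD, n = 2). Mir494 had 2826 and 1902 CPM (2364 ± 654). Mir300, the near twin of Mir381 by its 3p arm, had 2058 and 2074 CPM (2066 ± 11.3), and Mir543 had 1625 and 1507 CPM (1566 ± 83.3). These levels were close in both libraries for Mir134, Mir300 and Mir543. Mir494 was lower in replicate 2, and the remaining 3 members of this range were higher there. Mir1193 had 2176 and 3842 CPM (3009 ± 1178), Mir376c had 1307 and 2355 CPM (1831 ± 741), and Mir323 had 1224 and 2226 CPM (1725 ± 709).

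A further 16 detected members had means under 1000 CPM. The highest of them were Mir329 with 1005 and 748 CPM, Mir679 with 879.9 and 786 CPM, and Mir485, whose microRNA is known to act on the synaptic vesicle protein Sv2a, with 914 and 685 CPM. The lowest was Mir1197, with 45 counts in each library, or 13.5 and 28.4 CPM (20.9 ± 10.6). The detected members thus ranged over almost 3 orders of magnitude although they are thought to share precursors. Level bore little relation to place in the cluster, with a Spearman rho of -0.06 between log2 mean CPM and position over 33 members, which share both libraries. The genes before Mirg held 53.9% of the cluster's counts in replicate 1 and 63.8% in replicate 2, and those inside it 46.1 and 36.2%. This split leaves out the opposite-strand reads at Gm24321 inside Mirg and at Gm25252, Gm25750 and Mir299b before it.

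On their own strand, 7 members missed the minimum of 10 counts. Mir654, Gm24321, Gm25252 and Gm25750 had 0 counts in both libraries, where 3 counts, the most that a count of 0 allows, equal 0.897 CPM in replicate 1 and 1.89 CPM in replicate 2. Mir453 had 1 and 0 counts, Gm27379 had 9 and 1, and Mir544 had 9 and 8. At Gm24321, Gm25252 and Gm25750, which lie on the minus strand, all reads were on the other strand.

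Reads on the opposite strand made up 25.1% of all unstranded member counts in replicate 1 and 27.5% in replicate 2, and all of them fell at the 4 minus-strand members. Across from each of those lies a plus-strand microRNA in GENCODE M21, the later annotation used here for coordinates. Gm24321, across from Mir409, had 71890 and 41355 opposite-strand reads in replicates 1 and 2, or 19587 and 23599 CPM of unstranded counts. In that column it stood highest of the cluster in both libraries, at ranks 14 and 8 of all genes, but by little. Mir541 had 19538 CPM in replicate 1 and Mir411 had 23370 CPM in replicate 2, so the first place was not resolved. Gm25252, across from Mir376a, had 27148 and 20819 reads (7397 and 11880 CPM). MicroRNAs of the miR-376 family are known for A-to-I editing in brain, and such edits were not analysed here.

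The other pair of loci was lower. Mir299b had 15757 and 8939 reads across from it, at Mir299a (4293 and 5101 CPM), and Gm25750 had 5614 and 5974 across from it, at Mir380 (1530 and 3409 CPM). Gm24321, Gm25252 and Gm25750 had 0 reads on their own strand. Mir299b had 65 and 49, which was 19.4 and 30.9 CPM on the strand of the gene. The arms of miR-299a and miR-299b are printed because they nearly coincide: their 3p arms share a run of 18 bases and their 5p arms a run of 21 bases. Reads that match both could be left out as mapping to several places, so the counts on both strands can be too low.
miR-299a-3p: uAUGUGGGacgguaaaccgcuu
miR-299b-3p: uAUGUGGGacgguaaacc
miR-299a-5p: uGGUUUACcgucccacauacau
miR-299b-5p: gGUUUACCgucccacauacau

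The microRNAs annotated across from the abundant loci have these arms, and they carry seeds that no other annotated arm of the cluster has.
miR-409-5p: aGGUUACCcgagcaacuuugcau
miR-409-3p: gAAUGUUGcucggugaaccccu
miR-376a-3p: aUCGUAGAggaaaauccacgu

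Counted without regard to strand, the cluster's share was 13.07% in replicate 1 and 16.00% in replicate 2, a mean of 14.5%. Its 5 highest members then were Gm24321, Mir411, Mir487b, Mir541 and Gm25252, with 54.9 ± 1.38% of its counts (SD, n = 2). The opposite-strand reads at the 4 loci were 37.0% of all opposite-strand reads in replicate 1 and 45.9% in replicate 2. In that column the seed shared by miR-379-3p and miR-411-3p belonged to hairpins with 16821 and 34405 CPM in sum, and the seed shared by miR-379-5p and miR-1193-5p to hairpins with 7858 and 14509 CPM. Those sums hold reads of both arms and leave out reads that map to several places, so they are not levels of the seeds themselves.

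The order of the members was much alike in both libraries, while single members moved by up to about 2-fold. Across 33 tested members, CPM of the libraries had a Spearman rho of 0.97, a description over genes that share both libraries. Each gene with at least 10 counts in sum was tested with a two-sided exact binomial test. It set the counts against the share expected from library sizes scaled by TMM, and it knows counting noise only. Log2 ratios use the same scaling and CPM does not, so a ratio differs slightly from that of the CPM printed beside it. Members were called where the adjusted p was under 0.05 and the libraries stood 2-fold apart or more. Of the 33 members, 4 were called (12.1%), beside 7.27% of all 454 tested genes. All 4 were higher in replicate 2, a direction in which 4.85% of all tested genes were called. By adjusted p alone 25 members passed (75.8%), beside 49.1% of all tested genes, and 17 of the 25 were higher in replicate 2. These 2 percentages are not at like depth, on which the p of this test depends. A mean of 100 counts or more was reached by 29 of the 33 members and 257 of the 454 genes. The median log2 ratio of replicate 2 over replicate 1 was 0.16 over the members and 0.01 over all tested genes.

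The called members were Mir411, Mir410, Mir496a and Mir1197. Mir411, with the CPM values given above, had a log2 ratio of 1.17 (95% interval 1.15 to 1.19), and of 1.11 with total assigned counts. Mir410, near the 3′ end, had 330.4 and 668 CPM, a log2 ratio of 1.08 (0.95 to 1.20). Mir496a, in an intron of Mirg, had 185 and 406 CPM, a log2 ratio of 1.19 (1.03 to 1.36). Uncalled members lay between all of the called ones along the cluster. Mir1197, the lowest detected member, had a log2 ratio of 1.14 with a wide interval (0.51 to 1.77). Adjusted p-values of the exact test (Benjamini-Hochberg) were 1.11e-64 for Mir410, 4.58e-47 for Mir496a and 6.28e-04 for Mir1197, while that of Mir411 was too small to compute. With an edgeR exact test that assumes a biological coefficient of variation of 0.2, 0 members were called, beside 1 of all 454 tested genes. In that test 11 members had an unadjusted p under 0.05, a number that was not set beside that of all genes.

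Several members stopped just short of 2-fold on the TMM scale. Mir379 had a log2 ratio of 0.98, Mir369 and Mir323 of 0.92, Mir376c of 0.91 and Mir1193 of 0.88, all higher in replicate 2. In the other direction Mir668 had 245 and 119 CPM (log2 ratio -0.98), Mir541 -0.90 and Mir667, with 982 and 536 CPM, -0.81. Of 29 members that averaged 100 counts or more, 26 lay within 2-fold, and the median fold between libraries was 1.29, beside 1.28 over the 257 genes of that depth. On this scale the cluster's members thus varied about as much as other genes. Across from Gm25750, at Mir380, the unstranded log2 ratio was 1.22 and also called in that column, while those at the loci of Mir409, Mir376a and Mir299a were 0.33, 0.75 and 0.32.

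**Figure D2:**
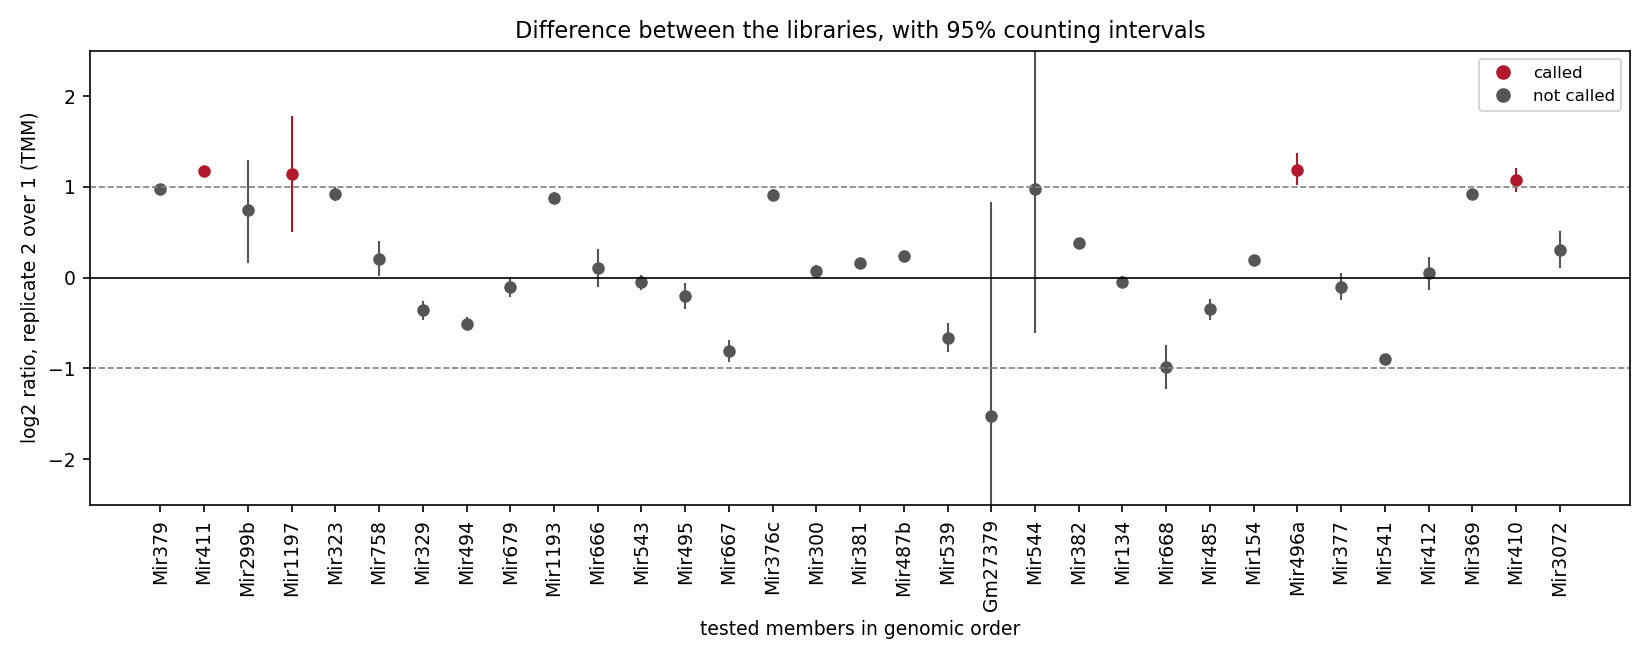
Log2 ratio of replicate 2 over replicate 1 (TMM scale) for the 33 tested members in genomic order, with 95% counting intervals as bars, called members in red and dashed lines at 2-fold; the bars of Gm27379 and Mir544, with few counts, run past the axis. The 4 called members sit between 1.08 and 1.19, and no member is called in the other direction.

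The ratio between the libraries went with the annotated length of the mature arms, a comparison chosen after the values were seen. The log2 ratio had a Spearman rho of -0.66 with mean mature length over 32 members (Pearson r -0.65), and -0.62 without Mir541. For genes with a single listed arm, the length is that of this arm. Over 28 members with 2 listed arms rho was -0.68, and over 298 other genes with 2 listed arms -0.33. Over 365 other tested genes rho was -0.30, so shorter annotated arms went with higher ratios outside the cluster too. Over 15 genes from the rest of the Dlk1-Dio3 region it was -0.23. Points of each correlation share the same libraries, and no difference between these values was tested.

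By length class, 7 members with a mean mature length of at most 21 bases had a median log2 ratio of 0.74. The 20 members above 21 and up to 22 bases had 0.15. The 5 members over 22 bases had -0.81, with 4 of 5 below 0. The corresponding medians over other genes were 0.07, 0.06 and -0.33. Within the shortest class the ratios were spread: Mir758, with a 3p arm of 19 bases, had a log2 ratio of 0.21. Mir134, with a mean of 21 bases, had -0.05. Mir487b, with 21 bases in its only listed arm, had 0.24. Arms of 2 called members, with 21 bases each, and of 2 members from the longest class are printed to show the contrast in length.
miR-410-3p: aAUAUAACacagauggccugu
miR-1197-3p: uAGGACACauggucuacuucu
miR-667-5p: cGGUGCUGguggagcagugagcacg
miR-668-3p: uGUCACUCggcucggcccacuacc

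**Figure D3:**
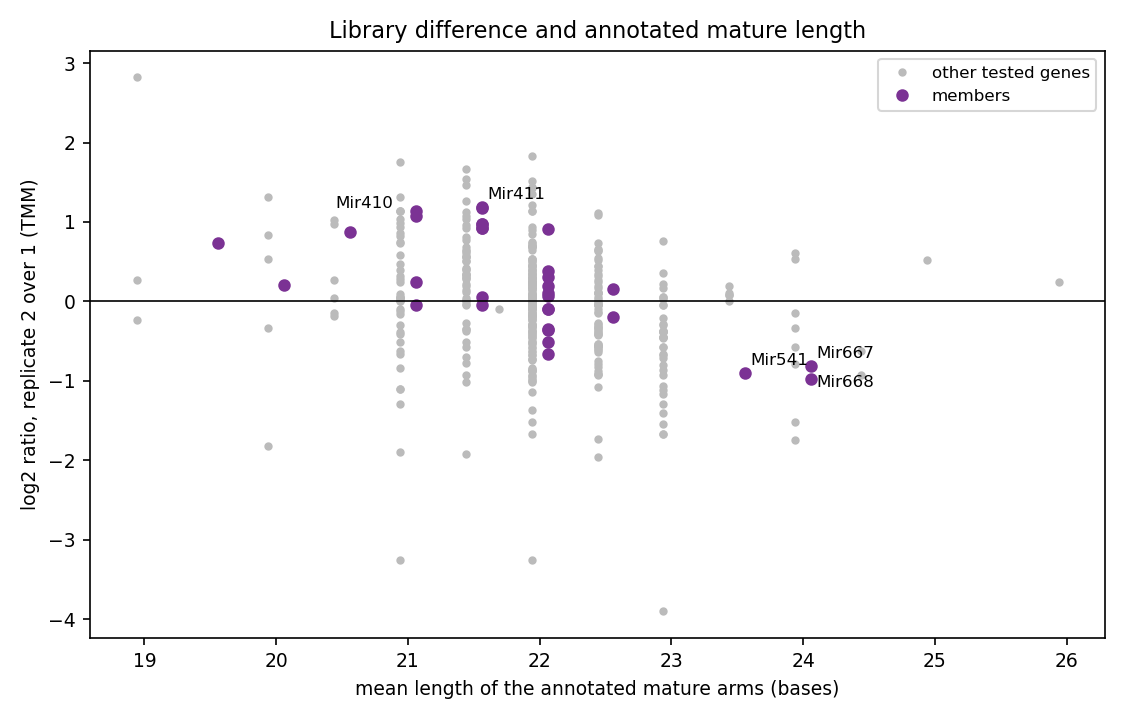
Log2 ratio of replicate 2 over replicate 1 against the mean RefSeq length of a gene's mature arms in bases, for 32 members (purple, drawn slightly to the right of their length) and 365 other tested genes (grey, slightly to the left). Mir541, Mir667 and Mir668, with the longest arms, lie below 0, and Mir410 and Mir411 above 1.

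The lengths are those of the annotation, and lengths of the reads were not analysed here. The ratios were then recentred on mature length with the slope of the 365 other genes, -0.24 per base. Of the 33 members 2 were still called, Mir411 (1.10) and Mir496a (1.12), beside 31 of all 454 tested genes. Mir410 fell to 0.89 and Mir1197 to 0.95. Hairpin GC content showed little relation to the ratio, with a rho of -0.12 over 33 members, and position in the cluster likewise, with -0.15. The part of arm length in these differences was not tested.

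Elsewhere in the same imprinted region the shares were smaller. Of 10 listed microRNAs antisense to Rtl1, which cut the mRNA of that placental gene, 7 were counted and 5 detected. They held 3.10% of counts in replicate 1 and 3.96% in replicate 2 (3.53 ± 0.611%, SD, n = 2). Those near Meg3 and Rian held 1.48 and 1.60% (1.54 ± 0.0871%), with 12 of 13 listed genes counted and 10 detected. Of these genes only Mir431, antisense to Rtl1, was called between the libraries, with 9805 and 19258 CPM and a log2 ratio of 1.04, again higher in replicate 2. Listed genes that were not counted and opposite-strand reads are not in these shares, and no test set the lists against the cluster.

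**Figure D4:**
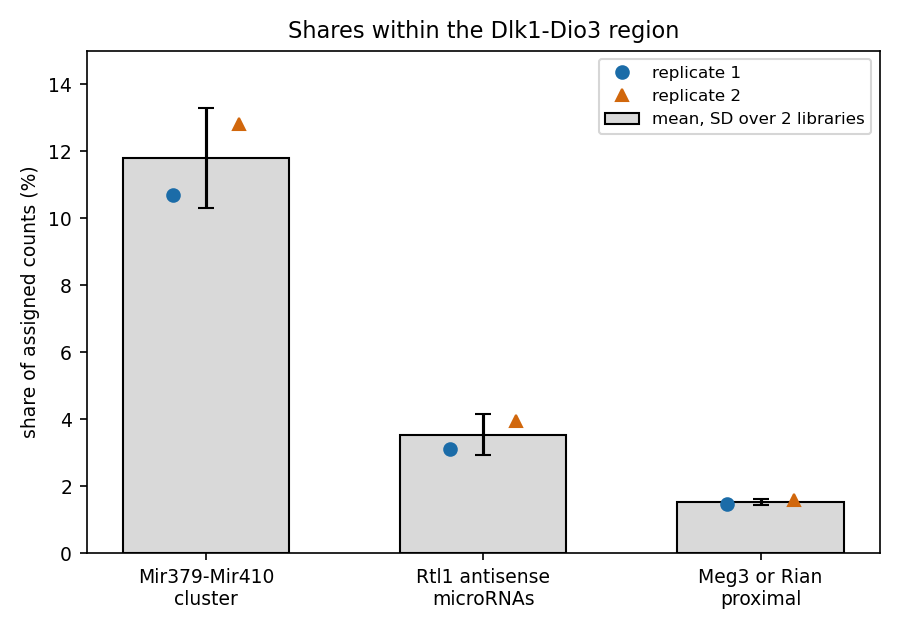
Share of assigned counts (%) for the Mir379-Mir410 cluster and for the microRNAs antisense to Rtl1 and near Meg3 or Rian; bars are means with the SD over 2 libraries, circles replicate 1 and triangles replicate 2. The cluster's bar, 11.8%, stands above 3.53 and 1.54%, and each share is higher in replicate 2.

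The tissue label was checked with marker microRNAs, which did not move one way. Of 5 hepatocyte genes 3 were detected, and the list held 3.30% of counts in replicate 1 and 3.69% in replicate 2, most of it from Mir122 with 30679 and 34487 CPM. Within it Mir192 had 928 and 1560 CPM, Mir194-2 had 1423 and 814, and Mir802 had 9 and 3 counts. Mir194-1, with 48 and 8 counts, was called lower in replicate 2 (log2 ratio -1.37), and the median log2 ratio of the list was -0.30. Both erythroid genes were detected, and their share went from 0.795 to 1.10%. Mir451a had 7495 and 9793 CPM, and Mir144 had 459.5 and 1214 CPM and was called higher in replicate 2, with a log2 ratio of 1.46. The erythroid and hepatocyte shares were thus both higher in the library in which the cluster's share was higher. So were the shares of the Rtl1 antisense and the Meg3 or Rian microRNAs, while the neural and striated muscle shares given below were lower there. The part of any cell type in the cluster's values was not tested.

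Since the cluster is best known from brain, neural and striated muscle lists were also set beside it. The 12 counted neural genes held 0.0621 and 0.0492% of counts, with 7 detected, and the 6 counted striated muscle genes 0.0714 and 0.0626%, with 3 detected. Several of these genes exist in copies with the same mature sequence, among them those of miR-9, miR-124, miR-1 and miR-133a. Reads that map to several places were not counted, so their counts of 0 or near 0 and the low shares of both lists do not show that these microRNAs were low.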

How the data were processed

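The data were 2 microRNA-seq libraries of mouse embryonic liver. Each deposited file gave raw read counts per gene in 3 columns: either strand, the strand of the gene and the opposite strand. Per the deposited description, reads were aligned to mm10 and counted on GENCODE M4. The aligner, the counter and any trimming are not given in the sources used here. The 4 summary classes that name no gene (73.8 and 71.0% of the 12750572 and 5471247 reads, 22.0 and 22.6% mapping to several places) stayed out of library sizes and tests. Reads mapping to several places were thus not counted, so the 4 members that share at least 20 bases with another microRNA gene can be too low. These include Mir411 with Mir758, and Mir376c and Mir487b with Mir376b, which was not analysed here. Genes that overlap at the same place were not compared in this way. Arms of miR-299a and miR-299b share runs of 18 and 21 bases, so counts at that locus can be too low as well.

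Of 1973 counted genes, 1894 matched GENCODE M21 by Ensembl identifier without version, and coordinates and exons were taken from it. Counts per 1000000 (CPM) were computed on the strand of the gene. Genes with a sum of 10 counts or more were tested between libraries by a two-sided exact binomial test against the share given by TMM effective library sizes (edgeR 4.0.16 in R 4.3.3), with Benjamini-Hochberg adjustment over 454 genes. The threshold for a call was an adjusted p of 0.05 together with 2-fold, and 0.5 was added to counts for ratios. Alternatives were total counts, DESeq2 1.42.0 size factors, other filters, the unstranded column, an edgeR exact test with an assumed coefficient of variation, each library left out, and, added after the data were seen, recentring on mature length. The procedure was run on simulated counts with counting noise only, the noise the test assumes, so that run cannot show how calls behave under variation between pools. Motifs and identities were computed in Python 3.11.15 with pandas 2.3.3 and scipy 1.17.1.

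Members, gene lists and tests were chosen with earlier results of these data known. Named with values were members with a mean of at least 1000 CPM, called members, the minus-strand members, the lowest and highest detected member and, by count, those not detected. Others (Mir329, Mir679, Mir485, Mir667, Mir668) were named after their values were seen.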

Additional observations from a re-analysis of the deposited data

How the results depend on the processing

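No paired analysis was possible because both libraries belong to 1 group. Counting without regard to strand moved the cluster's share of assigned counts from 11.8 to 14.5% and the share of its 5 highest members from 62.1 to 54.9%. Opposite-strand reads then joined the cluster's counts and the total. With the minus-strand members left out, the unstranded share of the cluster was 11.1%. With the most abundant gene left out of the denominator, the share on the strand of the gene was 12.7%. In the main setting 4 of 33 members were called between libraries, beside 33 of all 454 tested genes. With ratios recentred on mature length 2 were called, beside 31 of 454, and Mir410 (0.89) and Mir1197 (0.95) dropped out. When a coefficient of variation of 0.2 between pools was assumed, 0 members were called, beside 1 of 454. With total assigned counts 5 were called, beside 34 of 454, and Mir668 was added as lower in replicate 2. The unstranded column gave 5 of 36 members, beside 35 of 463 genes, with Gm25750 added. DESeq2 size factors gave 4, beside 33 of 454, and no filter on low counts gave 4 of 34, beside 32 of 724. At 100 summed counts or more, 3 of 30 were called, beside 15 of 285, and Mir1197 was among those no longer tested. With each library left out in turn the cluster's share ran from 10.7 to 12.8%, the number of detected members stayed at 31, and the share of the 5 highest members ran from 61.8 to 62.4%. Detection at 1 count gave 33 members and at 100 counts 29. The median log2 ratio of the members lay between 0.10 and 0.19 under these scalings, filters and columns. With 2 pools, no spread among embryos could be estimated, and Mir1197 and Mir299b rest on 45 to 65 counts a library.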
